A study of Mus musculus with 14 samples.

Results

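The mouse miRNAs mmu-miR-192-5p, mmu-miR-194-5p and mmu-miR-107-3p, written below without the species prefix, were followed across 14 miRNA arrays. These 3 of the 1247 miRNAs on the array were taken by name. The arrays held RNA from male C57BL/6 mice of 6 to 8 weeks, collected 12 h after 8 or 0 Gy of gamma radiation, and each array was a pool of 3 mice. Bone marrow gave 10 arrays, 1 at each dose for each of 5 arms: CBLB502 (0.2 mg/kg into the abdomen, i.p., 0.5 h before), amifostine (10 mg/kg i.p., 0.5 h before), nilestriol (150 mg/kg into the stomach, i.g., 48 h before), phosphate-buffered saline (PBS) i.p. and PBS i.g. Hypothalamus gave 4 arrays, 1 at each dose for amifostine i.p. and PBS i.p. CBLB502 derives from bacterial flagellin and acts through Toll-like receptor 5, amifostine is a thiol prodrug that scavenges radicals, and nilestriol is a long-acting oestrogen. Because no combination of tissue, arm and dose had a second array, no test below measures the spread between like arrays. In the irradiation tests the spread is that of the dose differences among arms, since level differences between arms are taken up by the block. In drug tests over both doses it is that between PBS routes and between the drugs' dose differences. In drug tests at a single dose, or of drug by irradiation, it is that between PBS routes. Between tissues it is that of the tissue differences across the conditions both tissues share. The p-values measure these spreads alone, each moderated by the spread of all tested miRNAs.

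A miRNA is a short RNA that pairs, mainly through its seed (bases 2 to 8), with messenger RNAs and lowers their output. p53, the transcription factor that DNA damage activates, is known from work in human cells to raise the genes of miR-192, miR-194 and their relative miR-215, and miR-107 with its host gene. miR-192 and miR-194 are best known from liver, gut and kidney, while miR-107 and its near twin miR-103 are widespread and, in mouse liver and fat, are known for effects on insulin sensitivity.

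The mature sequences of the members and of their closest relatives, from RefSeq (GRCm38.p6), are given 5′ to 3′ with the seed in capitals. The few bases that differ between relatives bear on what the probes could tell apart.
miR-192-5p: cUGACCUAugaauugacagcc
miR-215-5p: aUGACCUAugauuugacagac
miR-194-5p: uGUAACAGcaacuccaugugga
miR-107-3p: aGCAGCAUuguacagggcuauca
miR-103-3p: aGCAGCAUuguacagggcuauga

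miR-192-5p lies at chr19:6264857-6264877 on the plus strand, in Mir192. miR-194-5p has 2 copies on the plus strand, at chr19:6264658-6264679 in Mir194-2 and at chr1:185313325-185313346 in Mir194-1. Mir194-2 and Mir192 are 115 bases apart, and Mir194-1 and Mir215 are 195 bases apart within the span of Iars2. An array signal for miR-194-5p is therefore the sum of both loci. miR-107-3p lies at chr19:34820700-34820722 on the minus strand, within the span of Pank1, which encodes a pantothenate kinase. miR-103-3p comes from within Pank3 on chromosome 11 and Pank2 on chromosome 2. Counted from the 5′ end, miR-103-3p differs from miR-107-3p by C22G alone. miR-215-5p differs from miR-192-5p by C1A, A12U and C20A.

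Each member was read by 2 probes of 20 spots each. Both probes of miR-107-3p and the short probes alone of miR-194-5p and miR-192-5p are shown 5′ to 3′. Capitals mark the bases that do not pair with the relative (miR-103-3p for miR-107-3p, miR-215-5p for miR-192-5p).
miR-192-5p, short probe: gGctgtcaaTtcataggt
miR-194-5p, short probe: tccacatggagttgc
miR-107-3p, short probe: tGatagccctgtacaatgc
miR-107-3p, long probe: tGatagccctgtacaatgct

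The probes of miR-107-3p have 1 mismatch with miR-103-3p and those of miR-192-5p have 2 with miR-215-5p. How much of either relative they bind was not tested. miR-215-5p, which shares its seed with miR-192-5p and lies in a cluster with Mir194-1, was detected on 0 of 14 arrays. miR-103-3p was detected on 14 of 14, and its values are set beside those of miR-107-3p below.

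All 3 members were detected on 14 of 14 arrays, and none of their spots was saturated. Their brightness differed. On the bone marrow arrays the mean signal per spot lay between 27.1 and 53.4 intensity units for miR-192-5p, between 13.9 and 35.2 for miR-194-5p and between 440.1 and 802 for miR-107-3p. All 40 spots of miR-107-3p were well above background on each array. For miR-194-5p, 19 to 40 of 40 spots were so at 8 Gy and 14 to 26 of 40 at 0 Gy, so its low values rest on part of the spots. The fewest at each dose, 19 and 14, were on the CBLB502 arrays. For miR-192-5p the CBLB502 arrays had 35 of 40 at 8 Gy and 33 of 40 at 0 Gy, against 39 or 40 on the other bone marrow arrays. The other products of the same hairpins, miR-192-3p, miR-194-1-3p, miR-194-2-3p and miR-107-5p, were detected on 0 of 10 bone marrow and 0 of 4 hypothalamus arrays. Levels below are scaled signals, given as percent of each array's 75th percentile (taken over those miRNAs that every array of the tissue detected), and are compared between arrays, not between miRNAs.

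The arrays detected 332 to 403 miRNAs in bone marrow and 478 to 582 in hypothalamus. miR-223-3p, which marks granulocytes and monocytes, was detected on 10 of 10 bone marrow arrays and also on 4 of 4 hypothalamus arrays. miR-124-3p, which marks neurons, was detected on 0 of 10 bone marrow arrays and 4 of 4 hypothalamus arrays. Of a neuronal list with 9 miRNAs on the array, 2 or 3 passed detection per marrow array, against 9 per hypothalamus array. Those found in marrow were miR-128-3p and miR-338-3p (10 of 10 arrays) and miR-219-5p (8 of 10). The summed neuronal list was 0.299 to 0.668 times the array's 75th percentile in bone marrow and 83.8 to 113 times in hypothalamus. Both doses of an arm shared 1 of 3 slides. CBLB502 and PBS marrow were on slide 1 together with PBS hypothalamus. Amifostine and nilestriol marrow were on slide 2, and amifostine hypothalamus was on slide 3.

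Irradiation of bone marrow was compared within arms. All 3 members were higher at 8 Gy than at 0 Gy in each of the 5 arms, which 20.2% of the 371 tested miRNAs also were, and miR-194-5p passed the test across all miRNAs, at 1.56-fold. The test was limma with the arm as block, Benjamini-Hochberg adjustment over the 371 and a threshold of 0.05. It called 12.7% of them, 34 higher (9.16%) and 13 lower (3.5%), and the median log2 difference of all was 0.09. Of the calls 72.3% were thus higher, against 61.8% with the 75th percentile taken over all miRNAs, 47.8% with quantile normalization and 42.9% in the authors' deposited value table.

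The scaled signal of miR-194-5p at 8 Gy was 6.86% of the 75th percentile with CBLB502, 11.7% with amifostine, 11.8% with nilestriol, 12.9% with PBS i.p. and 10.1% with PBS i.g. At 0 Gy it was 4.79% with CBLB502, 6.09% with amifostine, 6.44% with nilestriol, 8.72% with PBS i.p. and 8.17% with PBS i.g. At 8 Gy 4 of the 5 arrays lay above all 5 arrays at 0 Gy, and the CBLB502 array at 8 Gy lay among the 0 Gy arrays. The doses thus overlapped, as they did for the other members, while 5.93% of the tested miRNAs had all 8 Gy arrays above all 0 Gy arrays and 3.5% had them all below. The difference within arms averaged 0.64 ± 0.12 on the log2 scale (SE, 95% confidence interval 0.34 to 0.94), with an adjusted p of 0.0284. By arm it was 0.52 with CBLB502, 0.94 with amifostine, 0.87 with nilestriol, 0.56 with PBS i.p. and 0.31 with PBS i.g. (SD 0.26, n = 5 arms). Both probes gave a positive difference in 5 of 5 arms, averaging 0.71 for the 15-base probe and 0.61 for the 16-base probe.

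The call for miR-194-5p was lost in 7 of 15 other settings and in 9 of 15 repeats that left out an array or an arm, while its sign was positive in all 30. It was lost without either array, or both, of the CBLB502, amifostine or PBS i.p. arm (log2 difference 0.56 to 0.67), and with normexp background correction the difference was 0.22 (adjusted p = 0.155).

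miR-192-5p, made from the same chromosome 19 locus as Mir194-2, did not pass. At 8 Gy its scaled signal was 10.2% of the 75th percentile with CBLB502, 15.6% with amifostine, 15.7% with nilestriol, 17.5% with PBS i.p. and 15.3% with PBS i.g. At 0 Gy it was 9.32% with CBLB502, 10.4% with amifostine, 10.5% with nilestriol, 14.5% with PBS i.p. and 12.7% with PBS i.g. As for miR-194-5p, 4 of the 5 irradiated arrays lay above all arrays at 0 Gy, and the CBLB502 array did not. The log2 difference was 0.37 ± 0.11 (95% confidence interval 0.10 to 0.63, 1.29-fold), with an adjusted p of 0.0779 by limma. It ranged from 0.12 with CBLB502 to 0.59 with amifostine (SD 0.21, n = 5 arms).

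miR-107-3p did not pass either. At 8 Gy its scaled signal was 169.9% of the 75th percentile with CBLB502, 241% with amifostine, 212% with nilestriol, 256% with PBS i.p. and 230.4% with PBS i.g. At 0 Gy it was 151% with CBLB502, 163% with amifostine, 139.5% with nilestriol, 228% with PBS i.p. and 199% with PBS i.g. The doses overlapped, with 3 of the 5 irradiated arrays above all arrays at 0 Gy. The log2 difference was 0.34 ± 0.11 (95% confidence interval 0.07 to 0.62, 1.27-fold; adjusted p = 0.0899 by limma). miR-103-3p, read by its own probes, differed by 0.40 ± 0.11 (adjusted p = 0.0703), also positive in 5 of 5 arms.

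**Figure D1:**
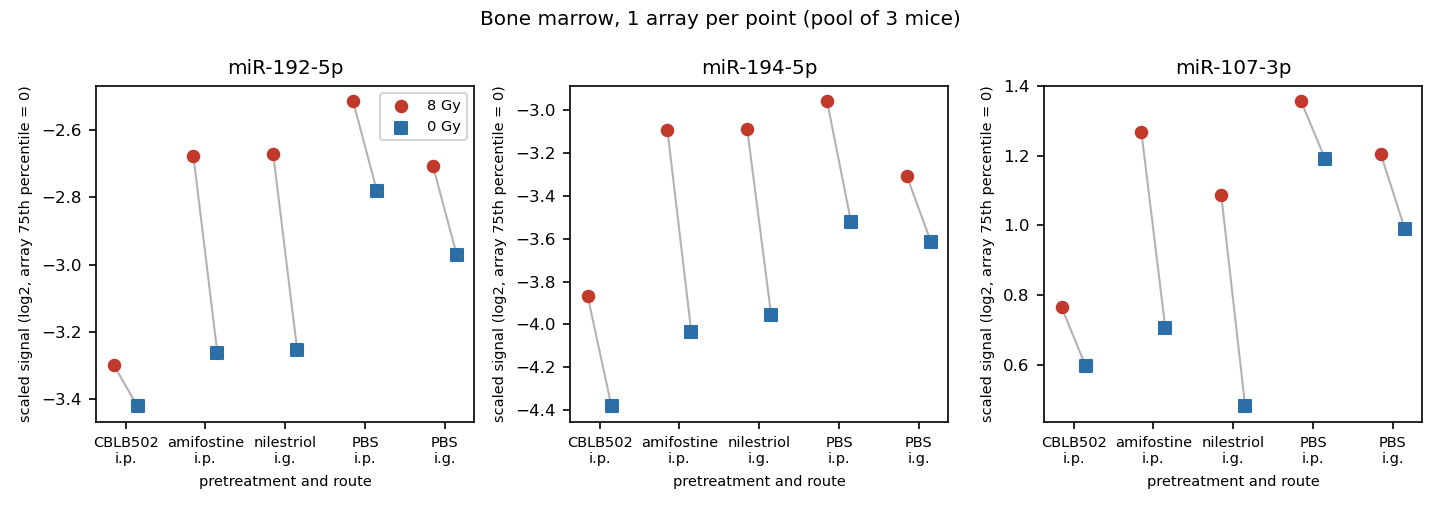
Scaled signal (log2, with the array's 75th percentile at 0) of each member on the 10 bone marrow arrays, 1 point per array, by pretreatment and route, with 8 Gy as circles left of 0 Gy as squares and a grey line joining the doses of an arm. The irradiated array of each arm lies above its unirradiated one for all 3 members, and both CBLB502 arrays lie below the 4 PBS arrays.

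After scaling, the difference was larger on slide 2 than on slide 1. For miR-194-5p the arms of slide 2 (amifostine and nilestriol) gave 0.87 to 0.94, against 0.31 to 0.56 for the arms of slide 1 (CBLB502 and both PBS). For miR-192-5p they gave 0.58 to 0.59 against 0.12 to 0.27, and for miR-107-3p 0.56 to 0.61 against 0.16 to 0.21. The slides' scaled ranges did not overlap for any member, but the unscaled ones did. The scaled ranges were also apart for miR-103-3p (0.62 to 0.65 against 0.20 to 0.28) and miR-34a-5p (2.28 to 2.63 against 1.91 to 2.08). The share of all miRNAs split in this way was not counted. Of the 371 tested miRNAs, 64.7% had a higher irradiation difference with nilestriol than with PBS, and 53.6% with amifostine than with PBS. Without scaling, the log2 difference of miR-194-5p was 0.54 and 0.64 in the arms of slide 2, against 0.77 with PBS i.p. and 0.43 in each of the other arms of slide 1. That of miR-192-5p was 0.18 and 0.35 on slide 2, against 0.04 to 0.48 on slide 1, and that of miR-107-3p was 0.15 and 0.38 on slide 2, against 0.08 to 0.38 on slide 1. Slide and pretreatment cannot be told apart here. Fitted within slide 1 alone, where limma called 10 of 359 miRNAs, miR-194-5p differed by 0.47 (adjusted p = 0.0576), and within slide 2, where it called 0 of 398, by 0.94 (adjusted p = 0.176). In the 4 PBS arrays alone, where limma called 0 of 362 miRNAs and 107 had an unadjusted p under 0.05, the log2 differences were 0.45 ± 0.10 for miR-194-5p (adjusted p = 0.169), 0.28 ± 0.07 for miR-192-5p (adjusted p = 0.17) and 0.20 ± 0.07 for miR-107-3p (adjusted p = 0.235).

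**Figure D2:**
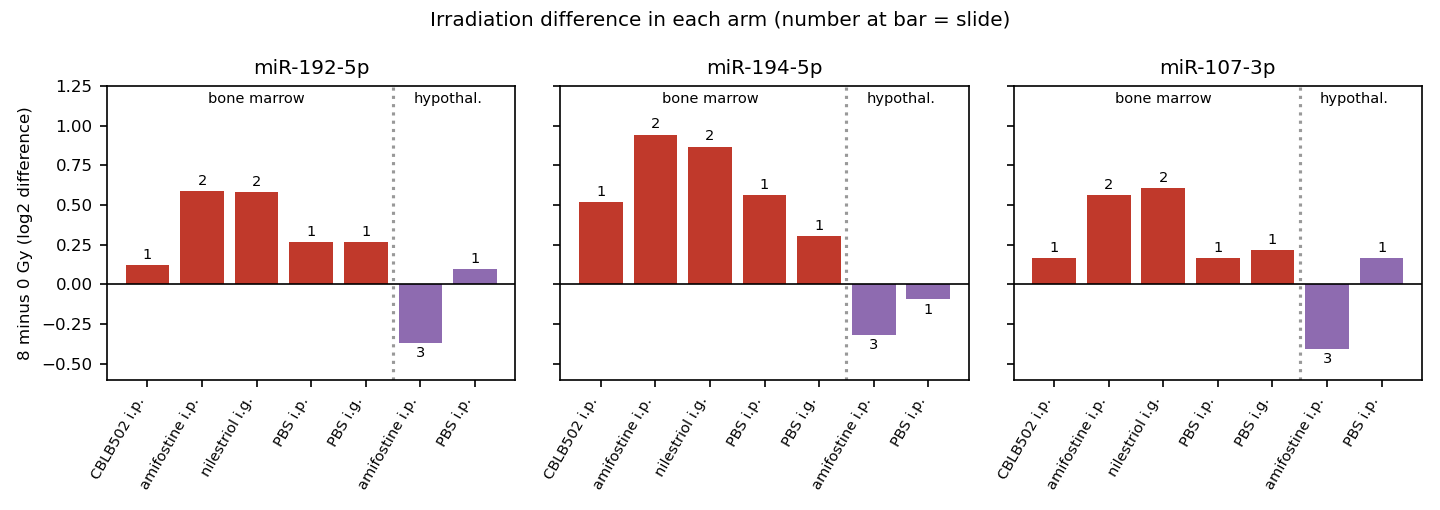
Log2 difference of scaled signals, 8 minus 0 Gy, of each member in the 5 bone marrow arms and the 2 hypothalamus arms, 1 bar per arm from 1 array at each dose, so that bars carry no error, with the slide's number at each bar. All bone marrow bars are positive, and in this scaling, though not without it, both those of slide 2 are the tallest. The amifostine arm of hypothalamus is negative for all 3 members, and the PBS arm of hypothalamus for miR-194-5p only. Without scaling, the amifostine arm of hypothalamus was positive and the PBS arm of hypothalamus negative for all 3 members.

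The members stood among other miRNAs that p53 is known to raise or to help mature. Of a list of 15 such miRNAs, 14 were on the array and 6 were tested in bone marrow, members included. 4 rose and 0 fell, against 9.16% of all tested miRNAs called higher, and the list's median log2 difference was 0.62 against 0.09 for all. miR-194-5p itself is among the 4, and the list was chosen with earlier results of these data known. The part of p53 in these differences was not tested. miR-34a-5p, the best known direct target of p53, had 81.7% of the 75th percentile with CBLB502, 79.5% with amifostine, 77.1% with nilestriol, 86.5% with PBS i.p. and 77.6% with PBS i.g. at 8 Gy, against 12.5 to 23.03% over the same arms at 0 Gy. It rose by 2.17 ± 0.13 (adjusted p = 0.00108). miR-16-5p and miR-15a-5p, which restrain the cell cycle, rose by 0.76 ± 0.12 (adjusted p = 0.0166) and 0.59 ± 0.13 (adjusted p = 0.0386). miR-34b and miR-34c, miR-145a-5p and miR-215-5p were detected on 0 of 10 bone marrow arrays, and miR-143-3p on 2.

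Some markers of blood cells moved with dose in the same arrays, where 9.16% of all tested miRNAs were called higher and 3.5% lower. All 4 tested miRNAs of an erythroid list of 6 rose, among them miR-144-3p by 1.60 ± 0.34 (adjusted p = 0.0348) and miR-451a, which accumulates as red cell precursors mature, by 1.40 ± 0.17 (adjusted p = 0.00922). Their summed scaled signal was 182 to 304 times the 75th percentile at 8 Gy, against 45.5 to 119.6 times at 0 Gy. Of 6 lymphoid miRNAs 2 fell, and their sum was 1.59 to 2.32 times at 8 Gy, against 1.82 to 3.54 times at 0 Gy. Of 6 tested myeloid miRNAs 1 rose (miR-223-3p, by 0.54 ± 0.10, adjusted p = 0.026), and the sum was 59.4 to 99.7 times at 8 Gy, against 41.2 to 79.3 times at 0 Gy. Of 5 tested stromal miRNAs 1 rose (miR-140-3p, by 0.71 ± 0.13, adjusted p = 0.0239), with sums of 2.83 to 3.48 times at 8 Gy, against 1.28 to 2.78 times at 0 Gy. The single calls in the myeloid and stromal lists do not set those lists apart from all tested miRNAs. Hepatocyte miR-122-5p and miR-122-3p were detected on 0 of 10 bone marrow arrays, and of 9 epithelial miRNAs 1 or 2 were detected on each. The part of these markers in the members' differences was not tested. In pooled tissue a larger share of a cell type and more RNA per cell cannot be told apart.

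CBLB502 was compared with PBS in bone marrow over both doses. All 3 members were lower with CBLB502, and miR-194-5p (1.71-fold) and miR-192-5p (1.53-fold) fell past the threshold. Both CBLB502 arrays lay below all 4 PBS arrays for each member, which 17.8% of the 371 tested miRNAs also did. limma called 12.1% of them, 20 higher (5.39%) and 25 lower (6.74%), and the median log2 difference of all was 0.15. Of the calls 44.4% were thus higher, against 15.7% with the 75th percentile taken over all miRNAs and 12.5% with quantile normalization.

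For miR-194-5p the CBLB502 arrays had 6.86% of the 75th percentile at 8 Gy and 4.79% at 0 Gy, whereas the PBS arrays had 10.1 and 12.9% at 8 Gy and 8.17 and 8.72% at 0 Gy. The log2 difference was -0.78 ± 0.17 (95% confidence interval -1.18 to -0.37, adjusted p = 0.0445). For miR-192-5p the CBLB502 arrays had 10.2% at 8 Gy and 9.32% at 0 Gy, whereas the PBS arrays had 15.3 and 17.5% at 8 Gy and 12.7 and 14.5% at 0 Gy. The log2 difference was -0.62 ± 0.15 (95% confidence interval -0.97 to -0.27, adjusted p = 0.0445). The irradiated CBLB502 array lay below both unirradiated PBS arrays for each of these miRNAs.

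For miR-107-3p the CBLB502 arrays had 169.9% at 8 Gy and 151% at 0 Gy, whereas the PBS arrays had 230.4 and 256% at 8 Gy and 199 and 228% at 0 Gy. Its log2 difference of -0.50 ± 0.15 (95% confidence interval -0.86 to -0.15, 1.42-fold lower) did not pass (adjusted p = 0.0593 by limma). miR-103-3p was close to it, at -0.54 ± 0.15 (adjusted p = 0.0564). miR-34a-5p, the p53 target with the large irradiation difference, differed by -0.08 ± 0.18 (adjusted p = 0.711), with a 95% confidence interval of -0.50 to 0.33.

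The calls for miR-194-5p and miR-192-5p were lost in 5 and 8 of 14 other settings and in 5 and 6 of 10 repeats that left out an array, with a negative sign in each. They were lost without either CBLB502 array, without either PBS i.p. array or without the unirradiated PBS i.g. array (log2 difference -0.83 to -0.69 for miR-194-5p and -0.75 to -0.46 for miR-192-5p), and for miR-192-5p also without the irradiated amifostine array (-0.62). With normexp the differences were -0.19 and -0.21. Within slide 1, which held all CBLB502 and PBS arrays and where limma called 107 of 359 miRNAs, the differences were -0.76 for miR-194-5p (adjusted p = 0.033), -0.61 for miR-192-5p (adjusted p = 0.0354) and -0.49 for miR-107-3p (adjusted p = 0.039).

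At 8 Gy alone the CBLB502 minus PBS log2 differences were -0.73 ± 0.19 for miR-194-5p, -0.69 ± 0.15 for miR-192-5p and -0.52 ± 0.14 for miR-107-3p (adjusted p = 0.136, 0.101 and 0.136). At 0 Gy they were -0.82 ± 0.19, -0.55 ± 0.15 and -0.49 ± 0.14 in the same order (adjusted p = 0.134, 0.143 and 0.146). limma called 0 of 371 miRNAs at either dose, with 123 and 117 at an unadjusted p under 0.05, and the spread came from the PBS pairs, which the single CBLB502 array was taken to share. The difference between these differences was 0.08 ± 0.27 for miR-194-5p, -0.14 ± 0.21 for miR-192-5p and -0.02 ± 0.20 for miR-107-3p (adjusted p = 0.962, 0.896 and 0.986), and its sign turned under other scalings for miR-194-5p and miR-107-3p and with normexp for miR-192-5p. The intervals reached from -0.78 to 0.95, from -0.82 to 0.54 and from -0.67 to 0.62, so a change of the irradiation difference by CBLB502 was not resolved.

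Myeloid markers moved with CBLB502. Of 6 tested myeloid miRNAs 4 fell, against 6.74% of all tested miRNAs, miR-223-3p by 0.95 ± 0.13 (adjusted p = 0.0277) and miR-23a-3p, miR-27a-3p and miR-24-3p by 0.68 to 0.75. Their summed scaled signal was 41.2 to 59.4 times the 75th percentile on the CBLB502 arrays, against 77.1 to 99.7 times on the PBS arrays. Of 4 tested erythroid miRNAs 0 passed, with sums of 95.6 to 192 times with CBLB502, against 98.6 to 276 times with PBS. Lymphoid sums were 1.59 to 3 times with CBLB502, against 1.77 to 3.54 times with PBS, and stromal sums 2.02 to 2.83 times against 2.55 to 3.48 times. The part of the myeloid difference in that of the members was not tested. Of the 6 tested miRNAs of the p53 list, 0 rose and 2 fell, against 5.39% and 6.74% of all tested miRNAs, and the 2 were miR-194-5p and miR-192-5p.

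**Figure D3:**
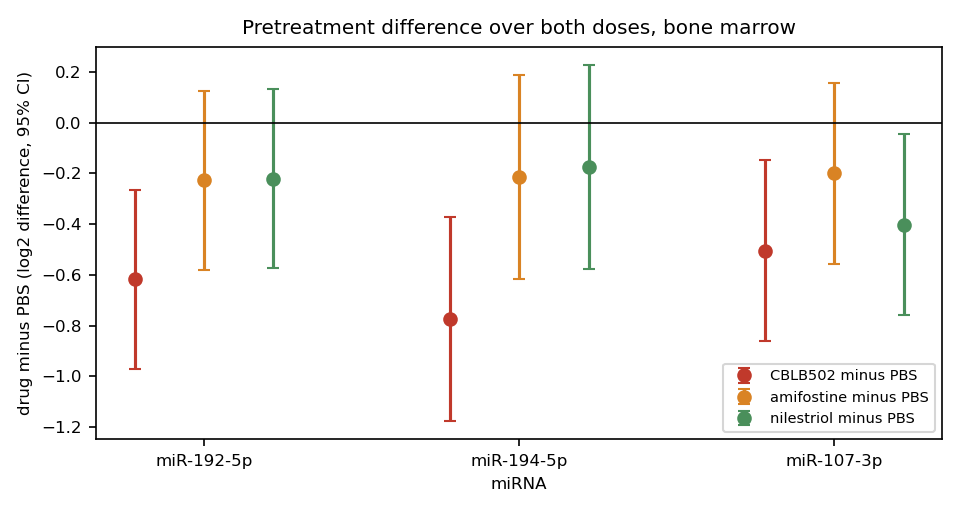
Drug minus PBS log2 difference of each member in bone marrow over both doses, with 95% confidence intervals from limma, for CBLB502, amifostine and nilestriol (2 arrays each) against 4 PBS arrays. The CBLB502 intervals lie below 0 for all 3 members, the amifostine intervals include 0, and of the nilestriol intervals that of miR-107-3p lies below 0.

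For amifostine and nilestriol no member passed over both doses. limma called 0 of 371 miRNAs for either drug, with 76 and 95 at an unadjusted p under 0.05. With amifostine the log2 differences were -0.22 ± 0.17 for miR-194-5p, -0.23 ± 0.15 for miR-192-5p and -0.20 ± 0.15 for miR-107-3p (adjusted p = 0.461, 0.385 and 0.439). With nilestriol they were -0.17 ± 0.17, -0.22 ± 0.15 and -0.40 ± 0.15 in the same order (adjusted p = 0.479, 0.321 and 0.179). The 95% confidence intervals reached down to -0.62 for amifostine and to -0.76 for nilestriol, so these data do not show that either drug left the members alone. Drug and slide cannot be told apart for these 2 drugs.

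Drug and PBS were also compared at each dose. At 0 Gy, nilestriol minus PBS was -0.61 ± 0.14 for miR-107-3p (adjusted p = 0.081), -0.38 ± 0.15 for miR-192-5p and -0.39 ± 0.19 for miR-194-5p (adjusted p = 0.151 and 0.208). limma called 9.43% of 371 miRNAs there (7.01% higher, 2.43% lower), and 0 of the 3 members. At 8 Gy the nilestriol differences were -0.19 ± 0.14 for miR-107-3p, -0.06 ± 0.15 for miR-192-5p and 0.04 ± 0.19 for miR-194-5p (adjusted p = 0.751, 0.935 and 0.975), the last of which was negative under other scalings. Amifostine minus PBS lay between -0.47 and -0.39 at 0 Gy (adjusted p = 0.167 to 0.183) and between -0.07 and 0.04 at 8 Gy (adjusted p = 0.984 to 1), where the sign of all 3 turned in some settings. The difference between the doses' differences was 0.51 ± 0.27, 0.32 ± 0.21 and 0.37 ± 0.20 with amifostine for miR-194-5p, miR-192-5p and miR-107-3p, and 0.43 ± 0.27, 0.32 ± 0.21 and 0.42 ± 0.20 with nilestriol (adjusted p = 0.428 to 0.45 and 0.297 to 0.386), so a difference between the doses was not resolved for either drug. Without scaling it was below 0 for all 3 members with amifostine and for miR-192-5p with nilestriol.

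Over the 10 bone marrow arrays the lowest values of miR-192-5p were both CBLB502 arrays, and the highest was the irradiated PBS i.p. array, at -3.42, -3.30 and -2.51 on the log2 scale. For miR-194-5p the unirradiated CBLB502 array was lowest at -4.38 and the irradiated PBS i.p. array highest at -2.96. For miR-107-3p the unirradiated nilestriol array was lowest at 0.48 and the irradiated PBS i.p. array highest at 1.36. Most neighbours in these orders were closer than the residual SD of the fit blocked by arm. This held for 6, 5 and 8 of 9 gaps for miR-192-5p, miR-194-5p and miR-107-3p. That SD leaves out level differences between arms.

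The members followed each other across these arrays. Among 295 other miRNAs detected on all 10, the pattern of miR-194-5p was most like those of miR-192-5p (Pearson r = 0.97), miR-345-5p (0.97) and miR-103-3p (0.97). That of miR-192-5p was most like miR-103-3p (0.98), miR-194-5p (0.97) and miR-148b-3p (0.97). That of miR-107-3p was most like let-7g-5p (0.98), miR-103-3p (0.98) and miR-148b-3p (0.97), with miR-192-5p 6th and miR-194-5p 23rd. The median r over all candidates lay between 0.05 and 0.07. miR-34a-5p was less like each member, at 0.64, 0.74 and 0.69 for miR-192-5p, miR-194-5p and miR-107-3p, and ranked 74th, 54th and 76th. These correlations describe 10 arrays that share arms, doses, slides and scaling.

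Hypothalamus showed no call for irradiation. For miR-194-5p the scaled signal at 8 Gy was 13.2% of the 75th percentile with amifostine and 14.8% with PBS, against 16.4% with amifostine and 15.8% with PBS at 0 Gy. Both irradiated arrays lay below both unirradiated ones, which 15.4% of the 544 tested miRNAs also did. For miR-192-5p it was 11.2% with amifostine and 13.2% with PBS at 8 Gy, against 14.5% with amifostine and 12.3% with PBS at 0 Gy. For miR-107-3p it was 707% with amifostine and 953% with PBS at 8 Gy, against 938% with amifostine and 848% with PBS at 0 Gy. After scaling, these 2 members were lower at 8 Gy in the amifostine arm and higher in the PBS arm, so the doses overlapped. Without scaling these signs turned. The unscaled log2 difference of miR-192-5p was 0.05 with amifostine and -0.11 with PBS, and that of miR-107-3p was 0.008 and -0.04.

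The unirradiated amifostine array stood apart in epithelial markers. Their summed scaled signal was 0.385 times the 75th percentile with amifostine and 0.212 times with PBS at 8 Gy, against 2.61 times with amifostine and 0.311 times with PBS at 0 Gy. Of 6 tested epithelial miRNAs 0 passed for either factor, with a median log2 difference of -1.58 for irradiation (0 of 6 above 0) and 1.70 for amifostine (6 of 6 above 0). After scaling, that array also had the highest miR-192-5p and miR-194-5p among the hypothalamus arrays, but before scaling it did not. Its unscaled signals were 40.3 and 45.6 intensity units, where the hypothalamus arrays reached 41.6 and 51.9. The part of these markers in the members' differences was not tested. Without that array, each difference is a single array minus another and has no spread. From the PBS pair, the log2 differences for irradiation were 0.09 for miR-192-5p, -0.10 for miR-194-5p and 0.17 for miR-107-3p. From the pair at 8 Gy, those for amifostine were -0.20, -0.13 and -0.40 in the same order.

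The log2 differences, 8 minus 0 Gy, were -0.21 ± 0.18 for miR-194-5p, -0.14 ± 0.23 for miR-192-5p and -0.12 ± 0.26 for miR-107-3p (adjusted p = 1 for each). limma called 0 of 544 miRNAs, with 0 at an unadjusted p under 0.05, from 4 arrays with 1 residual degree of freedom. The intervals were wide, from -0.98 to 0.57, -1.13 to 0.85 and -1.23 to 0.99. Those of miR-192-5p and miR-107-3p include the differences seen in bone marrow. That of miR-194-5p ends below its bone marrow difference of 0.64 over all arms, but it overlaps the bone marrow interval of 0.34 to 0.94. It also includes the 0.45 of the PBS bone marrow arrays alone. The sign of miR-192-5p and miR-107-3p turned in some settings. miR-34a-5p differed by 0.25 ± 0.22 (adjusted p = 1). Amifostine minus PBS in hypothalamus was -0.05 ± 0.18, 0.0037 ± 0.23 and -0.14 ± 0.26 for miR-194-5p, miR-192-5p and miR-107-3p (adjusted p = 1 for each; 1 of 544 miRNAs had an unadjusted p under 0.05), with signs that turned in some settings.

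The tissues were tested against each other on the 8 arrays of matched conditions. The irradiation difference in bone marrow minus that in hypothalamus was 0.99 ± 0.41 for miR-194-5p (95% confidence interval -0.16 to 2.13, unadjusted p = 0.0749 by limma), 0.59 ± 0.45 for miR-192-5p and 0.51 ± 0.46 for miR-107-3p. None passed (adjusted p = 1 for each), and limma called 0 of 530 miRNAs, with 17 at an unadjusted p under 0.05. Of the 530 miRNAs, 63% had a difference above 0, as the 3 members did. The sign held for all 3 in each of 13 other settings. Leaving out the unirradiated bone marrow amifostine array turned it for miR-107-3p, to -0.0093.

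The level of miR-107-3p was lower in bone marrow than in hypothalamus. Before scaling, the 4 matched bone marrow arrays had 501 to 698 intensity units and the 4 hypothalamus arrays 2601 to 2796. After scaling, all bone marrow arrays lay below all hypothalamus arrays, which 42.3% of the 530 tested miRNAs also did, and the log2 difference was -1.59 ± 0.23 (3.01-fold, adjusted p = 0.00366). limma called 56.0% of the tested miRNAs in this comparison, 40.2% lower and 15.8% higher. Of the calls 28.3% were higher in this scaling, against 64.4% with the 75th percentile taken over all miRNAs, 56.1% with quantile normalization, 45.4% with normexp, 52.4% in the authors' deposited value table and 14.1% without scaling. The median log2 difference of all miRNAs was -0.38 in this scaling and 0.62 with the 75th percentile taken over all miRNAs, where miR-107-3p differed by -0.17 (adjusted p = 0.484). miR-103-3p was also lower, by 1.34 ± 0.26 (adjusted p = 0.00988).

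For miR-192-5p and miR-194-5p the direction between tissues depended on the scaling, so none is given. miR-192-5p had 32 to 47.8 intensity units in bone marrow and 37.5 to 41.6 in hypothalamus. Its scaled log2 difference of 0.54 ± 0.24 (adjusted p = 0.113) was 2.13 (adjusted p = 0.00161) in the authors' deposited value table, and -0.11 (adjusted p = 0.603) without scaling. miR-194-5p had 18.7 to 35.1 intensity units in bone marrow and 42 to 51.9 in hypothalamus. Its scaled log2 difference of -0.29 ± 0.29 (adjusted p = 0.425) was 1.18 (adjusted p = 0.0176) in the authors' deposited value table and -0.93 (adjusted p = 0.0261) without scaling. Epithelial miRNAs were more often detected in hypothalamus, at 5 to 7 of 9 on each array against 1 or 2 of 9 on each bone marrow array. Their summed scaled signal was 0.0607 to 0.156 times the 75th percentile in bone marrow and, apart from the unirradiated amifostine array at 2.61 times, 0.212 to 0.385 times in hypothalamus. Without that array the differences were 0.80 for miR-192-5p (adjusted p = 0.00953), 0.015 for miR-194-5p (adjusted p = 0.958) and -1.36 for miR-107-3p (adjusted p = 0.000342). The part of such cells in the hypothalamus levels was not tested.

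**Figure D4:**
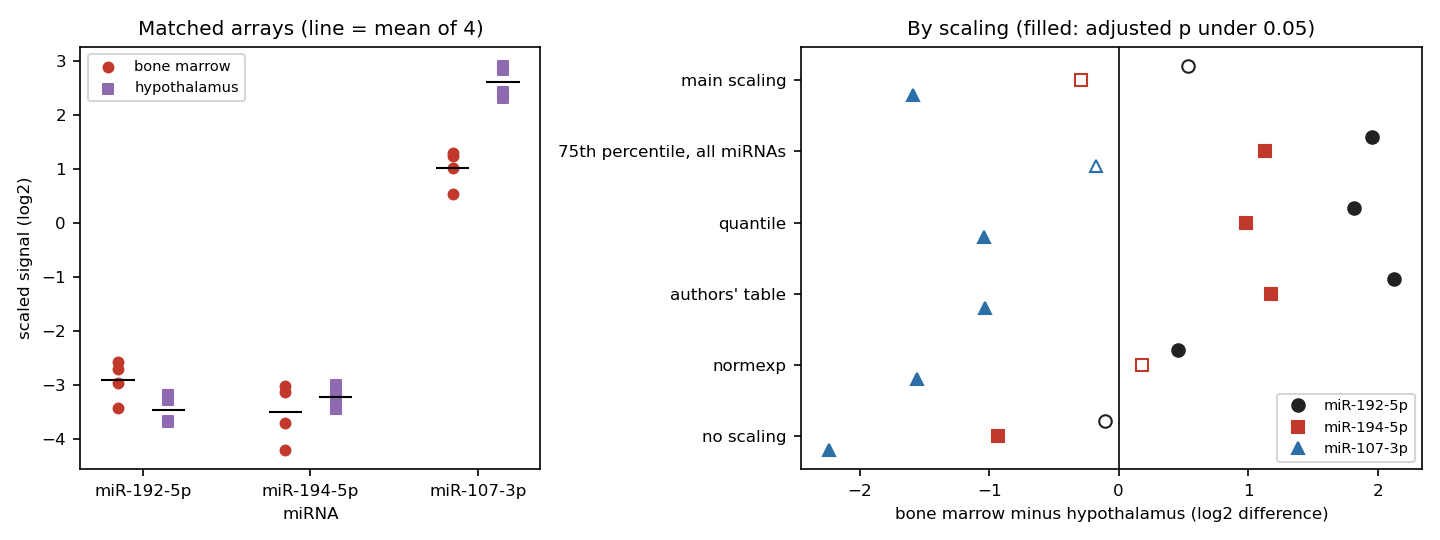
Left, scaled signal (log2) of each member on the 4 bone marrow arrays (circles) and 4 hypothalamus arrays (squares) of matched conditions, with a line at each mean; levels are not comparable between miRNAs. Right, the bone marrow minus hypothalamus log2 difference under 6 scalings, filled where the adjusted p was under 0.05: miR-107-3p stays below 0, from -2.23 to -0.17, while the points of miR-192-5p and miR-194-5p fall on both sides of 0.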

How the data were processed

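miRNAs were measured on 14 one-colour Agilent arrays. Per the file headers, the software was Feature Extraction 10.7.1.1 and the build mm9, and the deposited processed intensity of each spot was background-subtracted by that software. The authors deposited a table of log2 values as well, whose scaling is not given in the sources used here. It kept the order of the summed probe totals and served as an alternative. Spots flagged as outliers (4.42 to 5.27% of each array) were left out, spots were averaged per probe and probes per miRNA. Each signal was scaled to its array's 75th percentile, taken over those miRNAs that every array of a fit detected, floored at the 5th percentile of the values and taken to log2. miRNAs detected on at least 50% of arrays were tested with limma 3.58.1 in R 4.3.3 (lmFit, eBayes, Benjamini-Hochberg, threshold 0.05), tested on simulated data. The number of arrays limits the precision.

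The members and marker lists were chosen with earlier results of these data known. Named were the members, their relatives, the p53-linked miRNAs that passed in bone marrow irradiation with miR-34a-5p, the 3 miRNAs most like each member and the leading markers. Alternatives covered scaling, background, floor, detection filter, probe summary, slide, blocks and left-out arrays. Removal of a probe GC trend was added after seeing the data. RefSeq sequences matched 1017 of 1247 miRNAs.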

Additional observations from a re-analysis of the deposited data

Results flagged for a closer look

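The irradiated CBLB502 array stood apart for miR-192-5p among the 5 irradiated bone marrow arrays, at -3.30 on the log2 scale. Its gap to the next array was 0.755 of the group's range, above Dixon's 95% critical value of 0.71. This was 1 of 30 ends tested in 15 groups, and chance flags about 1 in 20 groups.

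For miR-194-5p the difference between 8 and 0 Gy was positive in all 5 bone marrow arms and negative in both hypothalamus arms. Of 371 miRNAs tested in bone marrow, 20.2% were positive in all 5 arms. In hypothalamus the fitted difference was above 0 for only 24.8% of 544 miRNAs, so a negative sign was the common one there. Without scaling, the hypothalamus amifostine arm was positive, at 0.10, and the PBS arm was -0.31. On the matched arrays the bone marrow minus hypothalamus difference of these differences was 0.99, which did not pass (adjusted p = 1, unadjusted p = 0.0749 by limma).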

How the results depend on the processing

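Each combination had 1 array, so the number of arrays limits every test here. Low signal over background limits miR-194-5p and, on the CBLB502 arrays, miR-192-5p. The irradiation fits were blocked by arm, and no fit by replicate number was run, since the labels give none shared between groups. The cause of the changes below was not tested. Values are log2 differences, with counts being miRNAs called.

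For bone marrow irradiation the sign of all 3 members was positive in 15 settings and 15 leave-outs each. The call for miR-194-5p was lost with normexp (0.22), without the detection filter (0.64), with scanner totals (0.53), in the authors' deposited table (0.52), within slide 1 (0.47), within slide 2 (0.94) and without the arm block (0.64). Leaving out an array or arm gave 0.56 to 0.72 for it, 0.31 to 0.43 for miR-192-5p and 0.27 to 0.40 for miR-107-3p. The count of 47 became 0 without the detection filter (many more miRNAs tested), 18 with scanner totals, 7 in the authors' deposited table, 10 within slide 1, 0 within slide 2, 26 without the arm block and 1 to 93 on leaving out an array or arm.

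For CBLB502 the call was lost for miR-192-5p and miR-194-5p without scaling (-0.66 and -0.82), with normexp (-0.21 and -0.19), without the detection filter (-0.62 and -0.78), with scanner totals (-0.67 and -0.93) and against PBS of the same route (-0.71 and -0.89). For miR-192-5p it was also lost with an offset (-0.51), in the authors' deposited table (-0.67) and without the probe GC trend (-0.48). miR-107-3p passed with scaling over all miRNAs (-0.74), with normexp (-0.45) and within slide 1 (-0.49). Leaving out an array gave -0.75 to -0.46 for miR-192-5p, -0.88 to -0.69 for miR-194-5p and -0.60 to -0.39 for miR-107-3p, which passed without either nilestriol array. The count of 45 became 83 with scaling over all miRNAs, 0 without scaling, 68 with an offset, 0 without the filter, 12 with scanner totals, 4 in the authors' deposited table, 0 against the same route, 107 within slide 1 and 0 to 88 on leaving out an array.

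Between tissues miR-192-5p passed with scaling over all miRNAs (1.96), quantile normalization (1.82), normexp (0.46), the authors' deposited table (2.13), the mature (0.71) or probe (0.82) GC trend removed and within slide 1 (0.87), and turned without scaling (-0.11). miR-194-5p turned with scaling over all miRNAs (1.13), quantile normalization (0.98), normexp (0.18), the authors' deposited table (1.18) and within slide 1 (0.016), and passed without scaling (-0.93). miR-107-3p lost its call with scaling over all miRNAs (-0.17). Leaving out an array gave 0.40 to 0.85, -0.49 to 0.0678 and -1.76 to -1.31 for miR-192-5p, miR-194-5p and miR-107-3p. miR-194-5p turned without the unirradiated amifostine array of bone marrow (0.0678) or of hypothalamus (0.015). The count of 297 became 160 with detection on all arrays and 174 to 305 on leaving out an array.

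Signs turned in comparisons that did not pass. CBLB502 by irradiation gave -0.13, -0.17, -0.0934, -0.43 and -0.16 for miR-194-5p with scaling over all miRNAs, no scaling, quantile, scanner totals and the authors' deposited table, 0.017 for miR-107-3p with quantile and 0.0687 for miR-192-5p with normexp. Amifostine at 8 Gy gave -0.22, -0.37, -0.24 and -0.21 for miR-194-5p with scaling over all miRNAs, no scaling, quantile and the authors' deposited table. It gave 0.17, 0.20, 0.14 and 0.0039 for miR-107-3p with quantile, scanner totals, the authors' deposited table and the probe GC trend removed, and 0.0515 and 0.144 for miR-192-5p with normexp and scanner totals. Amifostine by irradiation without scaling gave -0.25, -0.0642 and -0.20 for miR-192-5p, miR-194-5p and miR-107-3p, and nilestriol by irradiation -0.0792 for miR-192-5p. Nilestriol at 8 Gy gave -0.22, -0.0868, -0.10, -0.00585 and -0.085 for miR-194-5p with scaling over all miRNAs, no scaling, quantile, normexp and the authors' deposited table. Hypothalamus irradiation gave 0.00396, 0.0382 and 0.005 for miR-192-5p with quantile, scanner totals and the authors' deposited table, and 0.0544 for miR-107-3p with scanner totals. Hypothalamus amifostine gave -0.0893, -0.0566, -0.0825, -0.00683 and -0.11 for miR-192-5p with scaling over all miRNAs, quantile, normexp, the median over probes and the authors' deposited table, 0.013 and 0.10 for miR-194-5p without scaling and with scanner totals, and 0.013 for miR-107-3p with scanner totals. Tissue by irradiation for miR-107-3p was -0.0093 to 0.95 on leaving out an array. Some members that did not pass in the main setting passed in others. With CBLB502 at 8 Gy these were miR-194-5p (-1.355 to -0.11 over the settings) and miR-192-5p (-1.03 to -0.17). With nilestriol miR-107-3p passed in some settings at 0 Gy (-0.81 to -0.35) and in 1 of 13 over both doses (-0.64 to -0.22). Each single-dose value rests on a lone drug array. Removal of a mature-sequence GC trend was run for the matched tissue arrays alone, since sequences covered 77.6 to 79.4% of tested miRNAs elsewhere, and amifostine and nilestriol had no PBS array on their slide.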
